A study of Mus musculus with 12 samples.

Results

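The genes described here are 47 genes of DNA replication and S phase. They were chosen by symbol for their known function, with earlier results of these data known. They include origin licensing factors, the MCM helicase and its activators, DNA polymerases and primase, and the sliding clamp and its loader. Enzymes of nucleotide synthesis, chromatin assembly factors and the G1/S regulators of the E2F and cyclin E families also belong to them. All 47 were found among the 23234 rows of the table, and all 47 were among the rows tested, those with a mean of at least 1 FPKM (fragments per kilobase of transcript, scaled to the mapped fragments of the library) over the 12 libraries. RNA-seq was performed on sorted CD24hiTCRβlo CD4+CD8+ (DP) pre-selection thymocytes, which have not yet been positively selected, from thymus of the C57BL/6 strain. The source name and description of every sample give these cells, whereas the extraction protocol in the labels describes DN NKT cells, sorted after DP cells had been depleted. There were 5 libraries from newborn mice with wild-type Bcl11b, 3 from newborn Bcl11bm/m mice and 4 from Bcl11bfl/fl:Cd4-Cre mice, whose age the labels do not give, so that age and genotype cannot be told apart in comparisons with this group. Bcl11b is a zinc finger transcription factor needed for T cell commitment. The m allele carries a frameshift, its product lacks the last zinc finger, and homozygous mice die as neonates. In Bcl11bfl/fl:Cd4-Cre mice, Cre under Cd4 regulatory sequences deletes the floxed gene in DP cells that had a normal gene until then. Genotypes follow the sample titles and the overall design, since the free-text descriptions of the wild-type libraries name Bcl11bm/m and those of the Bcl11bfl/fl:Cd4-Cre libraries name Bcl11b+/+. The labels do not say that each library came from a separate mouse. P-values thus set differences against the spread between these libraries, which may not be that between mice.

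Replication begins when the origin recognition complex, Cdc6 and Cdt1 load the MCM helicase onto origins in G1 phase. The helicase is then switched on, and polymerases copy both strands behind it. Most of these genes are transcribed as cells pass from G1 into S phase, when cyclin E and Cdk2 release E2F transcription factors from the retinoblastoma protein. In the thymus, cells that have passed β-selection proliferate as they become DP, and most DP cells are then small and resting. In bulk samples, fewer cells in S phase and less RNA per cell cannot be told apart.

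E2F factors bind sites in the promoters of many replication genes, and the letters of such sites were searched in the 38 of the 47 genes that matched a promoter (250 bases before to 50 after the transcription start) of the RefSeq table for GRCm38.p6. The motif letters TTTCCCGC, TTTCGCGC, TTTGGCGC and TTTGCCGC, read on both strands, were found in 15 of the 38 genes (39.5%), against 390 of 7572 tested genes with a promoter in the table (5.15%) and 704 of all 27025 genes of the table (2.6%). Printed here are 8 stretches of 30 bases from genes of several roles that were called lower in either mutant or both. The stretches run 5′ to 3′ on the strand of the gene, with the motif in capitals. They were placed on NCBIM37 (mm9), the build of the expression data, by an exact match of their sequence: Orc1 at chr4:108252021-108252050 (plus strand), Cdc6 at chr11:98769316-98769345 (plus), Mcm5 at chr8:77633244-77633273 (plus), Mcm6 at chr1:130256374-130256403 (minus), Mcm7 at chr5:138613077-138613106 (minus), Pola1 at chrX:90877614-90877643 (minus), Lig1 at chr7:13864190-13864219 (plus) and E2f2 at chr4:135728209-135728238 (plus).
Orc1: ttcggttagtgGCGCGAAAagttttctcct
Cdc6: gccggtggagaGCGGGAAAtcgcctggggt
Mcm5: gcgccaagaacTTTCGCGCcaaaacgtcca
Mcm6: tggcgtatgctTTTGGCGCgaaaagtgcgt
Mcm7: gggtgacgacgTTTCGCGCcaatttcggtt
Pola1: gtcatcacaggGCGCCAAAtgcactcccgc
Lig1: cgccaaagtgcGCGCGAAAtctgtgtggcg
E2f2: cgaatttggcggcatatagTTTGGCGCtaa
In Mcm5 and Mcm6 the capitals overlap another match on the opposite strand. The CCAAT letters, read on both strands, were found in 23 of the 38 genes (60.5%), against 43.8% of the tested genes with a promoter. The CHR letters TTTGAA and TTTAAA, linked to genes of late cell cycle phases, were found in 10 of the 38 (26.3%), against 22.0%. A match describes the sequence only, and no binding was measured here.

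Library depth was estimated from the steps of low FPKM values at 3600000 to 6200000 fragments in wild-type, 2510000 to 3840000 in Bcl11bm/m and, for Bcl11bfl/fl:Cd4-Cre, 9870000 to 41890000, so depth and group moved together, and its part in the results was not tested. The lowest value of any of the 47 genes in any library was 1.28 FPKM, and their means over the 12 libraries ran from 2.59 to 204 FPKM. The targeted gene Bcl11b, measured over the whole gene and not over the altered exons, had 132 to 292 FPKM in wild-type, 430 to 482 in Bcl11bm/m and, for Bcl11bfl/fl:Cd4-Cre, 115 to 140. DP markers (10 genes) were expressed in every library, Cd4 at 281 to 651 and Cd8a at 591 to 1050 FPKM among them, with summed levels of 5100 to 6800 FPKM in wild-type, 3760 to 4280 in Bcl11bm/m and, for Bcl11bfl/fl:Cd4-Cre, 3530 to 5600, and 6 of the 10 were called lower in Bcl11bm/m and 1 in Bcl11bfl/fl:Cd4-Cre.

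In Bcl11bm/m thymocytes, 46 of the 47 replication genes had a lower mean log2(FPKM + 1) than in wild-type (52.3% of all rows did; 45 of the 47 after division by the FPKM sum without short RNAs), and 25 were called lower. The test was limma, two-sided, with Benjamini-Hochberg adjustment over all rows tested and a threshold of 0.05. The falls were deepest at the G1/S switch (E2f2 and Ccne1), in nucleotide supply (Rrm2 and Tk1), and in Gins1 and Gmnn. 1 gene, Prim2, was called higher. Over all rows tested, 7.39% were called lower, 9.92% higher and 17.3% in either direction. The median log2 difference of the 47 genes was -0.66, beside -0.02 for all rows tested. In 27 genes every Bcl11bm/m library lay below every wild-type library, and in 1 every library lay above, where 10.8% and 14.6% of all rows did so. The number called fell to 11 without Bcl11bm/m replicate 1 or without Bcl11bm/m replicate 2, and to 16 without wild-type replicate 2 or without wild-type replicate 5. A model with a replicate block, which uses fewer libraries, kept only the call of E2f2. At least 1 other filter, scaling or model ended the calls of Mcm3, Mcm4, Gins3, Rfc4, Fen1, Lig1, Dut, Chaf1a and Ccne2.

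In Bcl11bfl/fl:Cd4-Cre thymocytes all 47 genes had a lower mean than in wild-type (60.3% of all rows did), and 33 were called lower and none higher by the same test. Rrm2, Gins1, E2f2, Gmnn and Pola1 had the deepest falls. More of the MCM subunits and polymerases were called than in the other comparison, but that difference in counts was not tested. Between the mutants directly, Prim2 alone of these genes was called. Over all rows, 9.86% were called lower, 4.65% higher and 14.5% in either direction. The median log2 difference of the 47 genes was -0.88, beside -0.09 for all rows. The share of higher calls over all rows depended on scaling (32.0% as deposited, 47.3% with median-ratio scaling, 41.4% with quantile normalization and 53.1% after division by the FPKM sum without short RNAs), whereas the 47 genes were negative under each of these. Relative to the median of all rows, their median difference was -0.79 as deposited and -0.78, -0.78 and -0.83 under those scalings. In 25 genes every Bcl11bfl/fl:Cd4-Cre library lay below every wild-type library, against 10.6% of all rows, and in none did every library lie above, against 5.44%. The number called fell to 16 without Bcl11bfl/fl:Cd4-Cre replicate 1, to 18 without replicate 3 or replicate 4 of that group, and to 20 without wild-type replicate 2 or replicate 5. It was 21 with no filter on low values. The model with a replicate block kept only the calls of Orc6, Mcm6, Gins1, Pola1 and Ccne2. At least 1 other filter, scaling or model ended calls of Orc1, Cdc6, Mcm5, Mcm7, Mcm10, Prim1, Pole2, Rfc1, Rfc4, Fen1, Dut, Chaf1a and Ccne1. Both comparisons use the same 5 wild-type libraries, so they are not independent of each other.

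**Figure D1:**
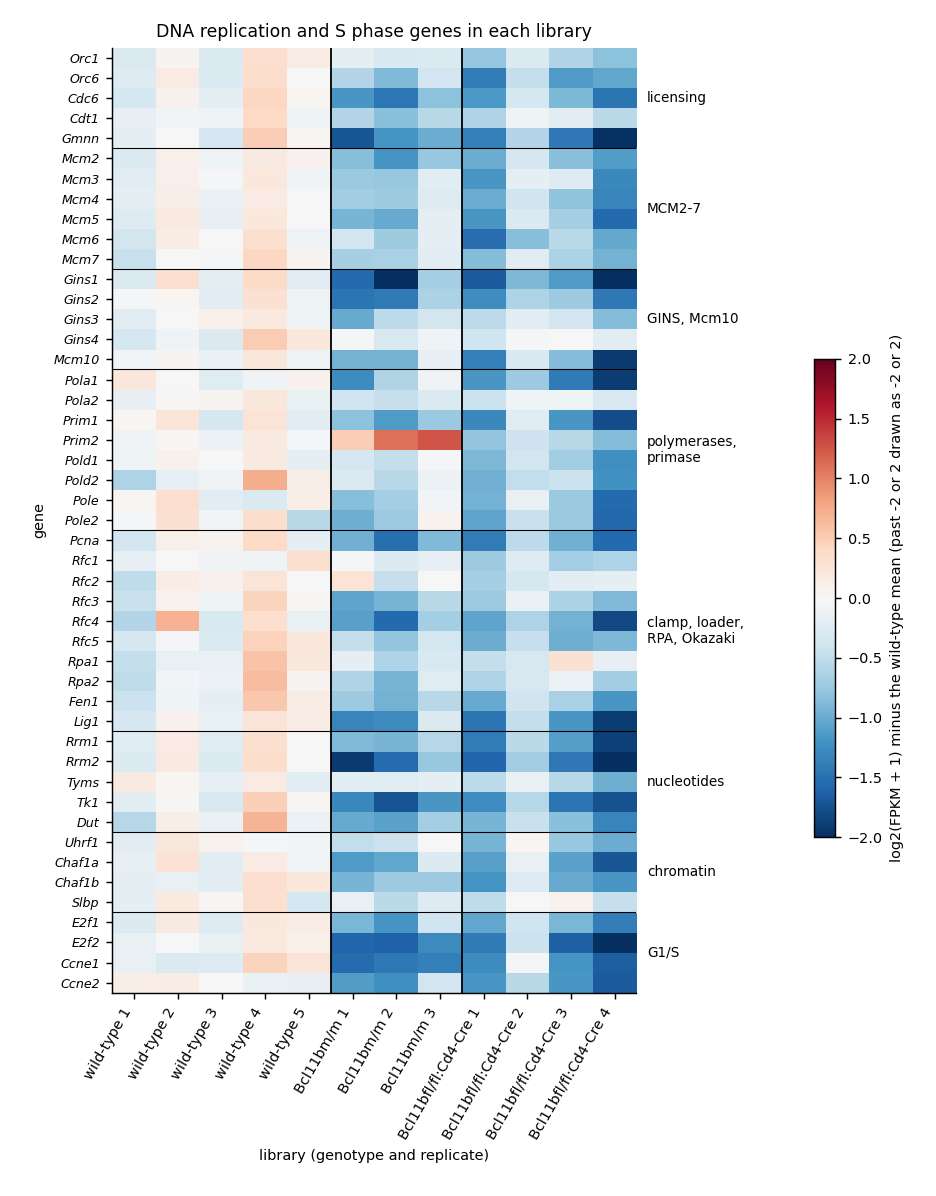
Each row is 1 of the 47 genes and each column 1 of the 12 libraries, and the colour is log2(FPKM + 1) minus the mean of the 5 wild-type libraries, blue for lower and red for higher. The mutant columns are mostly blue, palest in Bcl11bm/m replicate 3 and Bcl11bfl/fl:Cd4-Cre replicate 2, and Prim2 stands out as red in the 3 Bcl11bm/m libraries.

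The regulators of the G1/S switch are the transcription factors E2f1 and E2f2 and the cyclins Ccne1 and Ccne2, which activate Cdk2. All 4 were called lower in both mutants, with differences from -1.49 to -0.83 in Bcl11bm/m and from -1.37 to -0.93 in Bcl11bfl/fl:Cd4-Cre. E2f2 (chr4:135728309-135751972) had 104, 114, 104, 132 and 124 FPKM in wild-type libraries in the order of their replicate numbers, which holds for all lists of values given here. It had 37.8, 37.0 and 47.2 FPKM in Bcl11bm/m, and 42.5, 85.0, 36.5 and 28.3 in Bcl11bfl/fl:Cd4-Cre. Neither mutant overlapped wild-type, and Bcl11bfl/fl:Cd4-Cre replicate 2 was nearest to it. The log2 difference of E2f2 was -1.49 (SE 0.13, adjusted p = 0.000205 by limma with Benjamini-Hochberg adjustment) in Bcl11bm/m, the smallest p-value of the 47, and -1.37 (SE 0.27, adjusted p = 0.0104) in Bcl11bfl/fl:Cd4-Cre.

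Ccne1 (chr7:38883003-38892553) had 9.83, 8.85, 9.0, 15.4 and 13.3 FPKM in wild-type libraries, 3.13, 3.45 and 3.64 in Bcl11bm/m and 4.0, 10.8, 4.28 and 2.85 in Bcl11bfl/fl:Cd4-Cre. The Bcl11bm/m libraries lay close together and far below wild-type, while Bcl11bfl/fl:Cd4-Cre replicate 2 lay inside the wild-type range. Its differences were -1.45 (SE 0.20, adjusted p = 0.00195 by limma) and -1.03 (SE 0.31, adjusted p = 0.0491 by limma). With the replicate block set aside, the latter call held in 5 of 9 alternatives and in 1 of 9 fits that left out 1 library. It was lost with each of the 3 scalings and with no filter (adjusted p up to 0.0959 by limma). The replicate block ended it as well. Ccne2 (chr4:11118498-11131926) had 7.55, 7.62, 6.84, 6.06 and 5.92 FPKM in wild-type, 2.59, 2.32 and 4.94 in Bcl11bm/m and 2.45, 4.26, 2.47 and 1.46 in Bcl11bfl/fl:Cd4-Cre libraries. No mutant library reached the lowest wild-type library for this cyclin, which was called with differences of -0.91 (adjusted p = 0.0188 by limma) and -1.14 (adjusted p = 0.00745). E2f1 fell from a mean of 11.3 FPKM to 6.04 in Bcl11bm/m (adjusted p = 0.0286 by limma) and to 5.59 in Bcl11bfl/fl:Cd4-Cre (adjusted p = 0.0157).

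**Figure D2:**
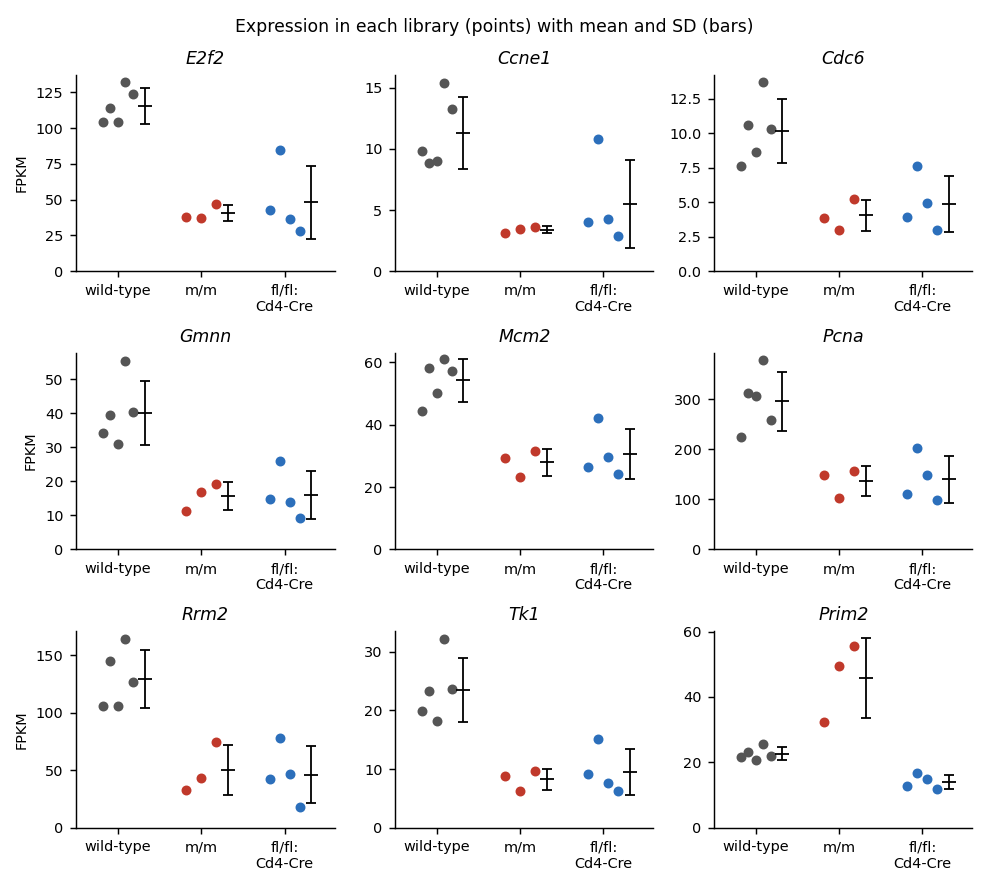
FPKM of 9 genes in each library (points, on linear axes that start at 0) for the 5 wild-type, 3 Bcl11bm/m (m/m) and 4 Bcl11bfl/fl:Cd4-Cre (fl/fl:Cd4-Cre) libraries, with the mean and SD of each group as a bar at its right. E2f2, Cdc6, Gmnn, Mcm2, Pcna, Rrm2 and Tk1 lie below wild-type in every mutant library, 1 Bcl11bfl/fl:Cd4-Cre library overlaps wild-type for Ccne1, and Prim2 is higher in Bcl11bm/m and lower in Bcl11bfl/fl:Cd4-Cre.

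Among the 5 origin licensing genes, Cdc6, Cdt1 and Gmnn were called lower in Bcl11bm/m, and Orc1, Orc6, Cdc6 and Gmnn in Bcl11bfl/fl:Cd4-Cre. Cdc6 (chr11:98769115-98785254), the ATPase that loads MCM with Cdt1, had 7.63, 10.6, 8.62, 13.7 and 10.3 FPKM in wild-type, 3.88, 3.02 and 5.23 in Bcl11bm/m and 3.93, 7.62, 4.92 and 2.99 in Bcl11bfl/fl:Cd4-Cre libraries. The Bcl11bm/m libraries were well separated from wild-type, and Bcl11bfl/fl:Cd4-Cre replicate 2 lay just below the lowest wild-type library. The log2 differences were -1.15 (SE 0.21, adjusted p = 0.00802 by limma) and -0.96 (SE 0.23, adjusted p = 0.023 by limma). Gmnn (chr13:24843714-24853792), which encodes geminin, the inhibitor of Cdt1 in S and G2 phases, had 34.2, 39.5, 31.1, 55.5 and 40.4 FPKM in wild-type, 11.3, 16.9 and 19.2 in Bcl11bm/m and 14.7, 26.0, 14.0 and 9.23 in Bcl11bfl/fl:Cd4-Cre. Neither mutant overlapped wild-type for Gmnn, and the differences were -1.29 (SE 0.22, adjusted p = 0.00547 by limma) and -1.34 (SE 0.26, adjusted p = 0.0105 by limma).

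Orc6 (chr8:87823531-87832177), a subunit of the origin recognition complex, had 18.0, 24.2, 17.7, 27.9 and 21.8 FPKM in wild-type, 14.1, 11.2 and 16.4 in Bcl11bm/m and 7.54, 15.2, 9.35 and 10.0 in Bcl11bfl/fl:Cd4-Cre libraries. All mutant libraries lay below all wild-type libraries. Its difference of -1.01 in Bcl11bfl/fl:Cd4-Cre was called (SE 0.20, adjusted p = 0.0108 by limma), and that of -0.62 in Bcl11bm/m missed the threshold (adjusted p = 0.0541 by limma). Cdt1 had means of 28.6, 17.6 and 22.1 FPKM in wild-type, Bcl11bm/m and Bcl11bfl/fl:Cd4-Cre and was called in Bcl11bm/m alone (-0.66, adjusted p = 0.0194 by limma, against -0.36 and 0.149). For Orc1, at 3.27, 2.53 and 1.77 FPKM the least abundant licensing gene per length, the call was made in Bcl11bfl/fl:Cd4-Cre alone (-0.62, adjusted p = 0.0442 by limma, against -0.26 and 0.355).

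The 6 subunits of the MCM2-7 ring, the motor of the replicative helicase, all had negative differences in both mutants. Mcm2, Mcm3 and Mcm4 were called in Bcl11bm/m, where the 6 differences lay between -0.93 and -0.42, and every subunit but Mcm3 was called in Bcl11bfl/fl:Cd4-Cre, where they lay between -0.98 and -0.67. Mcm2 (chr6:88833469-88848774) had 44.5, 58.1, 50.2, 61.2 and 57.3 FPKM in wild-type, 29.3, 23.2 and 31.6 in Bcl11bm/m and 26.5, 42.2, 29.7 and 24.2 in Bcl11bfl/fl:Cd4-Cre libraries. No mutant library reached the wild-type range, and the differences were -0.93 (SE 0.14, adjusted p = 0.00353 by limma) and -0.83 (SE 0.17, adjusted p = 0.0124 by limma). Mcm6 had the deepest fall of the ring in Bcl11bfl/fl:Cd4-Cre, from a mean of 62.9 to 31.9 FPKM (-0.98, adjusted p = 0.0133 by limma), while its mean of 46.7 FPKM in Bcl11bm/m was not called (-0.42, adjusted p = 0.156). Mcm7, the most abundant subunit per length, had 96.5, 66.7 and 60.3 FPKM in the 3 groups.

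The GINS complex (Gins1 to Gins4) and Mcm10 turn the loaded ring into an active helicase. Gins1, Gins2 and Gins3 were called lower in Bcl11bm/m, and Gins1, Gins2 and Mcm10 in Bcl11bfl/fl:Cd4-Cre. Gins1 (chr2:150731136-150757016) had 11.3, 17.8, 12.4, 18.7 and 11.9 FPKM in wild-type, 4.14, 2.74 and 8.50 in Bcl11bm/m and 3.79, 7.10, 5.88 and 2.66 in Bcl11bfl/fl:Cd4-Cre libraries. All 7 mutant libraries were below wild-type, with differences of -1.41 (SE 0.31, adjusted p = 0.0161 by limma) and -1.44 (SE 0.25, adjusted p = 0.00732 by limma). Gins2 (chr8:123102533-123113204) had 9.98, 10.5, 8.71, 12.9 and 9.46 FPKM in wild-type, 3.07, 3.19 and 6.22 in Bcl11bm/m and 3.75, 6.32, 5.79 and 3.18 in Bcl11bfl/fl:Cd4-Cre. It too had no overlap, with differences of -1.17 (SE 0.22, adjusted p = 0.00813 by limma) and -1.0 (SE 0.19, adjusted p = 0.00931 by limma). Gins4, a subunit of the same complex, was called in neither mutant, with means of 26.0, 22.9 and 22.7 FPKM and 95% confidence intervals of the log2 difference from -0.62 to 0.33 and from -0.58 to 0.25. Mcm10 had 8.88, 5.33 and 3.94 FPKM and differences of -0.69 (adjusted p = 0.0515 by limma) and -1.12 (adjusted p = 0.0256).

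The 8 genes of the polymerases comprise DNA polymerase α with its primase (Pola1, Pola2, Prim1 and Prim2), which lays down the RNA-DNA primers, and subunits of polymerases δ (Pold1 and Pold2) and ε (Pole and Pole2), which extend them. In Bcl11bm/m, 1 of the 8 was called lower (Prim1) and 1 higher (Prim2). In Bcl11bfl/fl:Cd4-Cre, 5 were called lower (Pola1, Prim1, Prim2, Pold1 and Pole2). Pola1 (chrX:90550106-90877494), the catalytic subunit of polymerase α, had 9.05, 7.51, 6.23, 7.16 and 8.08 FPKM in wild-type, 2.56, 4.61 and 7.16 in Bcl11bm/m and 2.81, 4.17, 2.20 and 1.29 in Bcl11bfl/fl:Cd4-Cre libraries. The Bcl11bm/m libraries spread from far below wild-type to inside its range, while all Bcl11bfl/fl:Cd4-Cre libraries lay below it. The difference of -1.30 in Bcl11bfl/fl:Cd4-Cre (SE 0.22, adjusted p = 0.00653 by limma) had the smallest p-value of the 47 genes in that comparison, and that of -0.65 in Bcl11bm/m was not called (adjusted p = 0.126).

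Prim2 (chr1:33510656-33726631), the large regulatory subunit of primase, departed from the other genes. It had 21.5, 23.1, 20.8, 25.7 and 22.0 FPKM in wild-type, 32.2, 49.6 and 55.5 in Bcl11bm/m and 12.7, 16.7, 15.0 and 11.9 in Bcl11bfl/fl:Cd4-Cre libraries. The 3 groups did not overlap. Prim2 was 0.95 higher than wild-type in Bcl11bm/m on the log2 scale (SE 0.17, adjusted p = 0.00751 by limma) and -0.66 from wild-type in Bcl11bfl/fl:Cd4-Cre (SE 0.12, adjusted p = 0.00907 by limma). Prim1 (chr10:127452228-127467093), the catalytic subunit of the same enzyme, had 27.3, 31.5, 20.7, 32.1 and 22.6 FPKM in wild-type, 14.6, 11.5 and 15.4 in Bcl11bm/m and 10.2, 22.2, 11.2 and 7.03 in Bcl11bfl/fl:Cd4-Cre. It was lower in both mutants (-0.90, adjusted p = 0.0104, and -1.12, adjusted p = 0.0247, by limma). Thus the primase subunits had like levels per length in wild-type (means of 26.9 FPKM for Prim1 and 22.6 for Prim2), and unlike ones in Bcl11bm/m (13.8 and 45.8).

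At the replication fork, Pcna is the sliding clamp, Rfc1 to Rfc5 form its loader, Rpa1 and Rpa2 cover single-stranded DNA, and Fen1 and Lig1 process and join Okazaki fragments. Of these 10 genes, Pcna, Rfc3, Rfc4, Fen1 and Lig1 were called lower in Bcl11bm/m, and Pcna, Rfc1, Rfc4, Rfc5, Fen1 and Lig1 in Bcl11bfl/fl:Cd4-Cre. Pcna (chr2:132074898-132079050), the most abundant of the 47 genes per length, had 224, 312, 306, 378 and 258 FPKM in wild-type, 149, 102 and 157 in Bcl11bm/m and 110, 202, 149 and 97.9 in Bcl11bfl/fl:Cd4-Cre libraries. Neither mutant overlapped wild-type, and the differences were alike at -1.12 (SE 0.21, adjusted p = 0.00871 by limma) and -1.11 (SE 0.23, adjusted p = 0.0133 by limma). Lig1, the ligase of the lagging strand, had means of 39.7, 21.1 and 17.1 FPKM (-0.95, adjusted p = 0.0352, and -1.25, adjusted p = 0.0126, by limma). Rpa1, Rpa2 and Rfc2 were called in neither mutant. Rpa1 had means of 61.7, 46.3 and 54.2 FPKM, with intervals from -0.90 to 0.16 in Bcl11bm/m and from -0.67 to 0.34 in Bcl11bfl/fl:Cd4-Cre.

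The genes of nucleotide supply encode both subunits of ribonucleotide reductase (Rrm1 and Rrm2), thymidylate synthase (Tyms), thymidine kinase (Tk1) and dUTPase (Dut). Apart from Tyms, all were called lower in both mutants. Rrm2 (chr12:25393106-25399011), the subunit that limits reductase activity through the cell cycle, had 106, 145, 106, 164 and 127 FPKM in wild-type, 33.1, 43.5 and 74.8 in Bcl11bm/m and 42.1, 78.1, 46.8 and 17.9 in Bcl11bfl/fl:Cd4-Cre libraries. No mutant library reached wild-type, although mutant libraries of 1 genotype differed widely among themselves. The differences were -1.40 (SE 0.26, adjusted p = 0.00839 by limma) and -1.62 (SE 0.34, adjusted p = 0.0145 by limma). Rrm1 (chr7:109590209-109618285) had 46.4, 61.6, 46.5, 69.2 and 54.4 FPKM in wild-type, 29.5, 28.3 and 36.6 in Bcl11bm/m and 20.3, 37.6, 25.0 and 14.4 in Bcl11bfl/fl:Cd4-Cre, again with no overlap (-0.79, adjusted p = 0.0119, and -1.22, adjusted p = 0.011, by limma). Tk1 (chr11:117676840-117687406), an enzyme of thymidine salvage, had 19.8, 23.3, 18.1, 32.2 and 23.6 FPKM in wild-type, 8.78, 6.23 and 9.72 in Bcl11bm/m and 9.15, 15.1, 7.66 and 6.19 in Bcl11bfl/fl:Cd4-Cre. All of its mutant libraries lay below wild-type, with differences of -1.39 (SE 0.21, adjusted p = 0.00294 by limma) and -1.25 (SE 0.24, adjusted p = 0.00973 by limma). Tyms had means of 20.8, 17.6 and 14.1 FPKM and was called in neither (adjusted p = 0.295 and 0.0559 by limma).

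Of the 4 genes of chromatin replication, Chaf1a and Chaf1b, subunits of the assembly factor that deposits new histones behind the fork, were called lower in both mutants. Chaf1a had means of 15.4, 8.54 and 7.72 FPKM in wild-type, Bcl11bm/m and Bcl11bfl/fl:Cd4-Cre (adjusted p = 0.0377 and 0.0344 by limma). With the replicate block set aside, its calls held in 6 and 7 of 9 alternatives. They held in 2 of 8 and 2 of 9 fits that left out 1 library, and the replicate block ended both. Chaf1b had 14.5, 7.85 and 7.47 (adjusted p = 0.0134 and 0.0214 by limma). Uhrf1, which recruits the maintenance DNA methyltransferase to new DNA, and Slbp, the histone mRNA binding protein, were called in neither. Their log2 differences were -0.30 and -0.31 in Bcl11bm/m and -0.66 and -0.23 in Bcl11bfl/fl:Cd4-Cre. Of the genes with E2F letters in the promoters described above, 7 were called lower in Bcl11bm/m out of 20 called genes with a promoter, beside 8 of the 18 not called lower. In Bcl11bfl/fl:Cd4-Cre the numbers were 10 of 27 and 5 of 11. These counts are a description and were not tested.

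**Figure D3:**
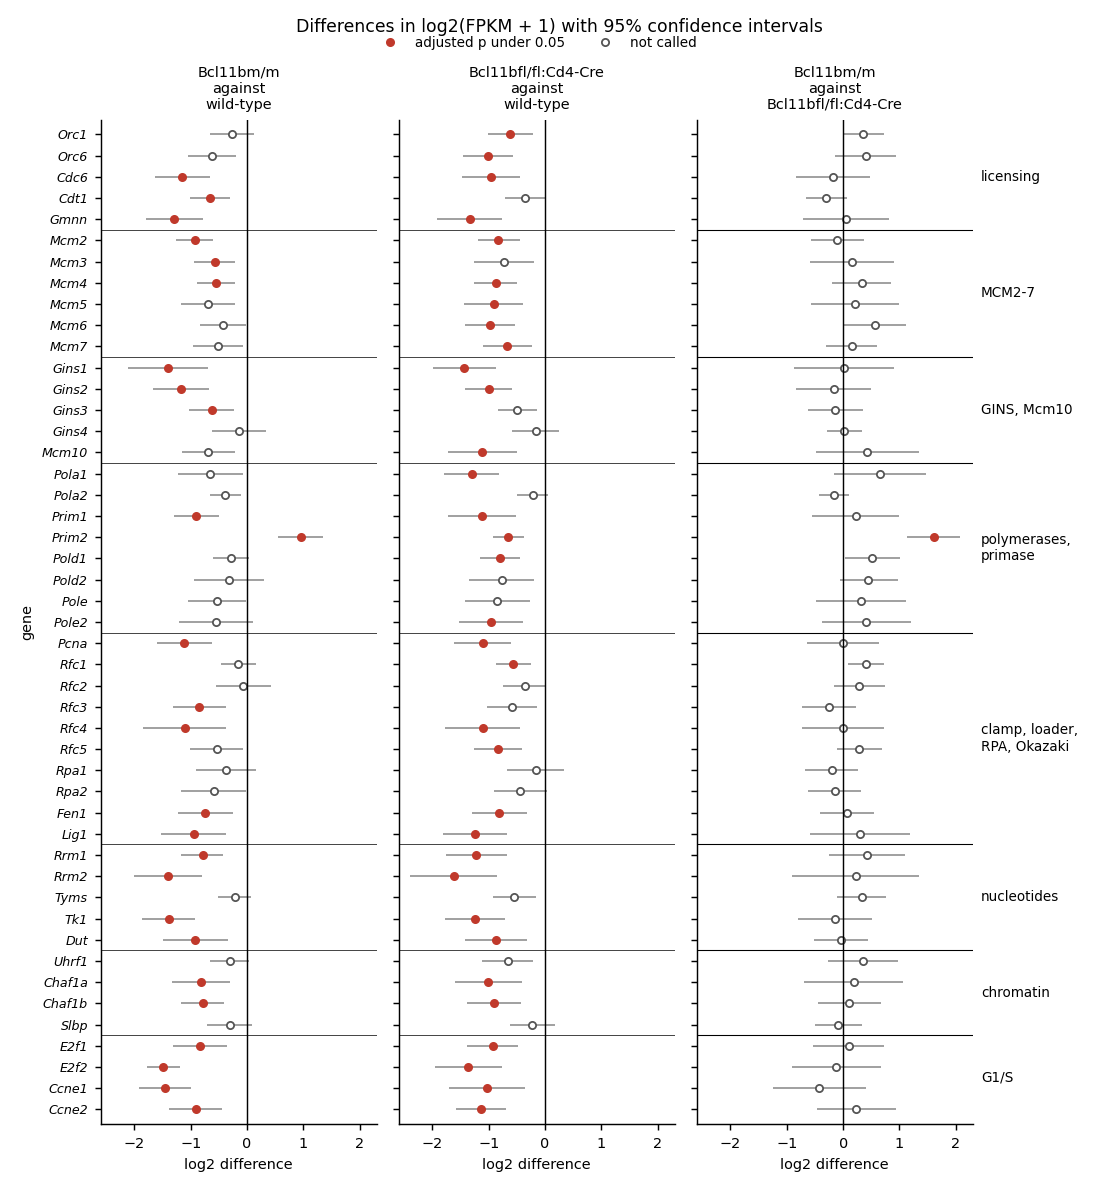
Log2 differences of the 47 genes in the 3 comparisons (points) with 95% confidence intervals from limma (lines), filled where the Benjamini-Hochberg adjusted p was under 0.05, and grouped by role. In the left and middle panels 25 and 33 genes are called lower, and in the right panel, Bcl11bm/m against Bcl11bfl/fl:Cd4-Cre, Prim2 alone is called.

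Bcl11bm/m was then compared with Bcl11bfl/fl:Cd4-Cre directly. Only Prim2 was called, at 45.8 ± 12.1 FPKM (SD, n = 3) against 14.1 ± 2.16 (SD, n = 4), a log2 difference of 1.61 (SE 0.20, adjusted p = 0.00655 by limma with Benjamini-Hochberg adjustment). Prim2 was also the only one of the 47 whose groups did not overlap, while 18.9% of all rows lay wholly higher in Bcl11bm/m and 7.76% wholly lower. Over all rows 7.63% were called higher in Bcl11bm/m, 2.6% lower and 10.2% in either direction. The median difference of the 47 genes was 0.16, beside 0.09 for all rows, and 4 of them (8.51%) had an unadjusted p-value under 0.05, against 29.1% of all rows. After Prim2 these were Rfc1 (0.41, 95% confidence interval 0.09 to 0.73), Pold1 (0.52, 0.03 to 1.01) and Mcm6 (0.56, 0.01 to 1.12), each with its lower mean in Bcl11bfl/fl:Cd4-Cre and none called. Without Bcl11bfl/fl:Cd4-Cre replicate 2, Rfc1 was called as well. For most genes the interval was wide. That of Rrm2 ran from -0.91 to 1.34, that of E2f2 from -0.91 to 0.67 and that of Pcna from -0.65 to 0.64, so a difference in either direction was compatible with the data for these genes. The share of higher calls over all rows was 74.6% as deposited, 54.6% with median-ratio scaling, 53.4% with quantile normalization and 63.5% after division by the FPKM sum without short RNAs, and Prim2 was the only call among the 47 under each.

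Within a genotype, the same libraries were high or low in most of the 47 genes. The median over the genes of log2(FPKM + 1) minus the wild-type mean was -0.86, -0.89 and -0.31 in Bcl11bm/m replicates 1 to 3, and -1.04, -0.35, -0.76 and -1.29 in Bcl11bfl/fl:Cd4-Cre replicates 1 to 4. In wild-type replicates 1 to 5 it was -0.22, 0.07, -0.15, 0.33 and 0.01. Thus every mutant library was below every wild-type library, and Bcl11bm/m replicate 3 and Bcl11bfl/fl:Cd4-Cre replicate 2 were the nearest to wild-type. Bcl11bm/m replicate 3 was the highest of its group in 41 of the 47 genes and Bcl11bfl/fl:Cd4-Cre replicate 2 in 39. Bcl11bfl/fl:Cd4-Cre replicate 4 was the lowest of its group in 36. All 47 genes lay below every wild-type library in Bcl11bfl/fl:Cd4-Cre replicate 1, and 25 did in Bcl11bfl/fl:Cd4-Cre replicate 2, beside 2977 and 2068 of the 10780 rows tested. Among the wild-type libraries, replicate 4 was highest in 39 genes and replicate 1 lowest in 28. The medians of all rows in these 2 libraries also lay above and below the others (0.16 and -0.24). Zbtb7b, which encodes the CD4 lineage factor ThPOK and which wild-type libraries expressed at no more than 0.215 FPKM, was at 33.1, 9.44, 56.6 and 23.8 FPKM in replicates 1 to 4 of Bcl11bfl/fl:Cd4-Cre and at 41.1 to 50.4 in Bcl11bm/m. Replicate 2 of Bcl11bfl/fl:Cd4-Cre was nearest to wild-type in both, but the order of the other 3 libraries differed, as replicate 3 had the highest Zbtb7b level and replicate 4 the lowest replication gene levels. Whether deletion differed between these libraries was not tested.

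**Figure D4:**
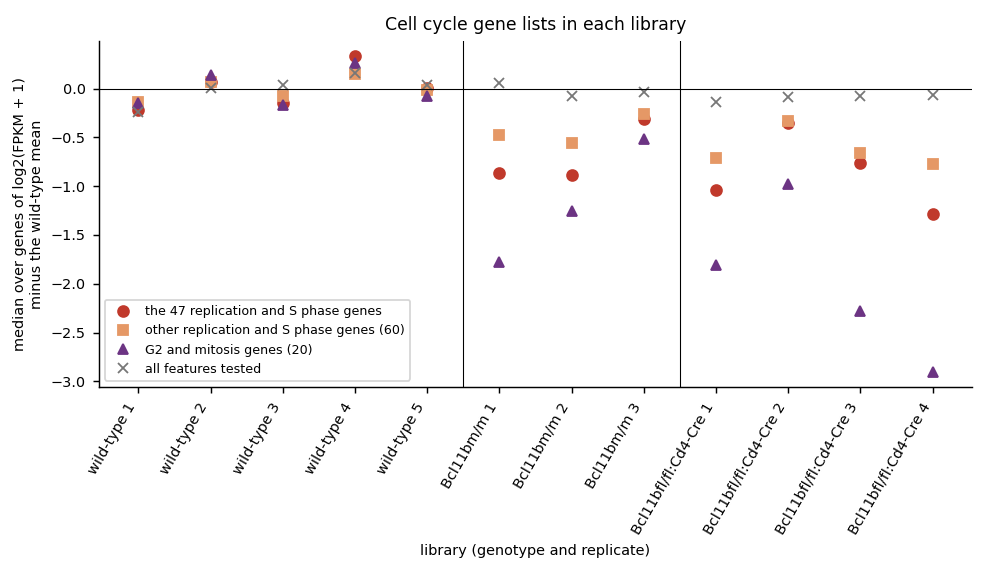
For each of the 12 libraries, the median over genes of log2(FPKM + 1) minus the wild-type mean is plotted for the 47 genes, the other replication and S phase genes, the G2 and mitosis genes and all rows tested. All rows stay between -0.24 and 0.16, while the 47 genes reach -1.29 and the G2 and mitosis genes -2.90 in Bcl11bfl/fl:Cd4-Cre replicate 4.

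Other genes of the same pathway were examined through a list of 63 replication and S phase genes outside the 47, of which 60 were tested. In Bcl11bm/m 20 of them were called lower and 3 higher (7.39% and 9.92% of all rows), with a median difference of -0.45. In Bcl11bfl/fl:Cd4-Cre 33 were called lower (9.86% of all rows) and none higher, with a median of -0.61. The 5 with the smallest p-values in Bcl11bm/m were E2f8 and E2f7, E2F repressors of late S phase (-1.59 and -1.67), the nuclease and helicase Dna2 (-0.99), the E2F partner Tfdp1 (-0.97) and E2f4 (-0.63), with adjusted p-values from 0.0025 to 0.00553 by limma. The 3 called higher, named after their values were seen, were Rrm2b, a reductase subunit that works outside S phase (0.64, adjusted p = 0.0191), Samhd1, which degrades nucleotides (0.90, adjusted p = 0.0436), and the E2F partner Tfdp2 (0.69, adjusted p = 0.0484). In Bcl11bfl/fl:Cd4-Cre the smallest p-values belonged to the deubiquitinase Usp1 (-1.04), the checkpoint kinase Chek1 (-1.24), the retinoblastoma relative Rbl1 (-0.90) and the fork factors Topbp1 (-0.68) and Timeless (-1.09), with adjusted p-values from 0.00423 to 0.00808 by limma. Between the mutants 5 of the 60 were called (8.33%), a share below that of all rows (10.2%). Tfdp2 (0.49), Rrm2b (0.60), Mtbp (0.65) and Top1 (0.66) were called higher in Bcl11bm/m and Cdk2 lower (-0.47).

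Of the 20 genes of G2 and mitosis, which act after replication, most were called lower. In Bcl11bm/m 15 were called lower (7.39% of all rows were), with a median difference of -1.15. In Bcl11bfl/fl:Cd4-Cre all 20 were called lower (9.86% of all rows were), with a median of -1.93. Ccnb1, the cyclin of mitotic entry, fell from a mean of 33.0 FPKM to 11.8 in Bcl11bm/m (-1.49, adjusted p = 0.00852 by limma) and to 6.76 in Bcl11bfl/fl:Cd4-Cre (-2.28, adjusted p = 0.00437). The kinase Plk1 fell from 44.1 to 20.3 and to 10.4 FPKM (-1.14, adjusted p = 0.0115, and -2.17, adjusted p = 0.00517, by limma). Between the mutants all 20 had the higher mean in Bcl11bm/m (6577 of the 10780 rows did), with differences from 0.06 to 1.44 and a median of 0.79, but none was called and none had an unadjusted p-value under 0.05. Among 13 tested genes of quiescence and cell cycle arrest, Klf2 was called higher in Bcl11bm/m (2.59, adjusted p = 0.00216 by limma) and in Bcl11bfl/fl:Cd4-Cre (2.23, adjusted p = 0.00885), and so was Foxo1 (1.31, adjusted p = 0.00254, and 0.96, adjusted p = 0.0161). Klf2 and Foxo1 also belong to the programme of cells after selection. Cdkn1c was called higher in Bcl11bm/m (0.66) and Ccng2 lower in Bcl11bm/m (-0.75). The inhibitors Cdkn2c and Cdkn2d were called lower in Bcl11bfl/fl:Cd4-Cre (-1.21 and -0.83), while the other genes of the list were not called. In each mutant 4 of the 13 were called (30.8%), against 17.3% of all rows in Bcl11bm/m and 14.5% in Bcl11bfl/fl:Cd4-Cre.

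Across the 12 libraries, the pattern most like the mean standardised pattern of the 47 genes was that of Tubb5, a tubulin (Pearson r = 0.986), followed by Hmgn2 (0.984), Hmgb2 (0.983), Tuba1a (0.98), Ncaph2 (0.978), Anp32b and Snrpd1 (both 0.975), Dnajc9 (0.974), Hdgf and Mybl2 (both 0.971). These correlations describe 12 libraries that differ by genotype and share their depth and scaling with the genes compared. Of the 47 genes, Prim2 was the least like their mean (0.227), followed by Rpa1 (0.509), Rfc2 (0.556) and Gins4 (0.62), and Rrm1 was the most like it (0.981).

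Markers of several other cell types differed between the groups. Of 7 markers of DN and immature thymocytes, 6 were called higher in Bcl11bm/m and 3 in Bcl11bfl/fl:Cd4-Cre. Their summed level was 15.9 to 25.4 FPKM in wild-type, 94.1 to 231 in Bcl11bm/m and, for Bcl11bfl/fl:Cd4-Cre, 37.5 to 108. Dtx1 was the largest part of the sum in Bcl11bfl/fl:Cd4-Cre replicates 1 and 4, while Il2ra and Kit in that group overlapped wild-type. Of 8 markers of thymocytes after selection, 6 were called higher in Bcl11bm/m, and 5 higher and 1 lower in Bcl11bfl/fl:Cd4-Cre, with sums of 93.2 to 169, 352 to 483 and 139 to 368 FPKM. For 6 NK cell markers the sums were 18.5 to 71.1, 215 to 416 and 66.3 to 189 FPKM, with 3 of 3 tested called higher in Bcl11bm/m, and 1 higher and 1 lower in Bcl11bfl/fl:Cd4-Cre, and Gzma made up most of the sums. The defining receptor Ncr1 was listed at 0 in every library but Bcl11bm/m replicate 2. Of the B cell markers, 3 were tested, of which none was called in Bcl11bm/m and 1 was called higher in Bcl11bfl/fl:Cd4-Cre. Cd79a, a signalling chain of the B cell receptor, stood at 10.7 FPKM in Bcl11bm/m replicate 1, against 1.08 and 0.21 in the other Bcl11bm/m libraries, at most 0.446 in wild-type and 0.911 to 3.92 in Bcl11bfl/fl:Cd4-Cre. The myeloid markers (7 measured) summed to 6.55 to 12.9, 10.6 to 47 and 1.37 to 3.35 FPKM, with 1 of 4 tested called higher in Bcl11bm/m and 2 lower in Bcl11bfl/fl:Cd4-Cre. The 7 erythroid markers summed to 2.37 to 34.6, 10.8 to 30.3 and 0.987 to 5.13 FPKM, with none of 3 tested called in either mutant. The 8 stromal markers summed to 10.6 to 31.2, 1.28 to 2.63 and 9.72 to 18.4 FPKM, with 2 of 2 tested called lower in Bcl11bm/m and 1 in Bcl11bfl/fl:Cd4-Cre, and Col3a1 was listed at 0 throughout. The part of these cell types in the lower replication genes was not tested.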

How the data were processed

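RNA labelled as that of sorted DP thymocytes was sequenced in 12 libraries. The authors mapped reads to mm9 with TopHat2 and computed FPKM per gene with Cufflinks 2.1.1 on the iGenome annotation, and deposited FPKM with no stated scaling between libraries. The library chemistry is uncertain, because the protocol in the labels, which describes DN NKT cells, and the study's methods describe different library preparations. Depth is estimated: 54.2 to 59.6% of low values in the genes used lay within 0.1 of a whole multiple of the fitted step, against 20% if spread evenly.

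Values were taken as log2(FPKM + 1), a scale on which the changes of weakly expressed genes appear smaller than they are. The 10780 rows with a mean of at least 1 FPKM were tested between each pair of groups. The limma package (3.58.1, R 4.3.3) was used with lmFit, then eBayes with its trend option. P-values were two-sided and adjusted by the Benjamini-Hochberg method over these rows, and calls were made under 0.05. The procedure was tested on simulated data. Python 3.11.15, pandas 2.3.3, numpy 2.4.6 and matplotlib 3.10.9 served the other steps. Gene positions are from GENCODE vM1. The 47 genes, the lists and the tests were chosen with earlier results of these data known. Library values are given for the 10 genes with the smallest p-values in each comparison with wild-type, and for Prim1. Up to 5 called genes were named per list, comparison and direction, and 10 genes by likeness of pattern. Alternatives changed the pseudocount (0.1), the filter (none, or a mean of 5 FPKM), the scaling (median-ratio, quantile, or division by the FPKM sum), the model (3 groups fitted jointly, robust eBayes, quality weights per library, or a replicate block) and the libraries, each left out in turn. The level of 1 marker gene is not reported here.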

Additional observations from a re-analysis of the deposited data

Results flagged for a closer look

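In the wild-type group, replicate 4 stood apart from the other 4 libraries for Cdt1, at 37.8 FPKM against 25.3 to 27.1 FPKM. On the log2(FPKM + 1) scale its gap to the nearest library, as a share of the range, was 0.824, above Dixon's critical value. This was the only such case among 94 groups of 4 or 5 libraries examined, 1 gene at a time, where chance gives about 4.7. Wild-type replicate 4 was also the highest of its group in 39 of the 47 genes.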

How the results depend on the processing

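No gene that was called changed direction under any alternative. The number of genes called stayed between 19 and 33 in Bcl11bm/m against wild-type and, apart from no filter on low values (21, the cause was not tested), between 30 and 43 in Bcl11bfl/fl:Cd4-Cre against wild-type, when the pseudocount, filter, scaling, fit, weights or robustness changed. Deviations of same-numbered libraries of different groups had correlations from -0.211 to 0.152. Libraries with different numbers were not compared in this way, so whether replicate numbers pair the libraries was not decided. The replicate block, which uses fewer libraries, called 1 gene (E2f2) in Bcl11bm/m against wild-type. It called 5 (Orc6, Mcm6, Gins1, Pola1 and Ccne2) in Bcl11bfl/fl:Cd4-Cre against wild-type and 0 between the mutants. Leaving out 1 library gave 11 to 30, 16 to 39 and 1 to 2. With the replicate block set aside, 10 of 26 (Cdc6, Gmnn, Mcm2, Gins2, Prim2, Pcna, Rrm2, Tk1, E2f2 and Ccne1), 16 of 33 (Orc6, Gmnn, Mcm2, Mcm4, Mcm6, Gins1, Gins2, Pola1, Prim2, Pold1, Lig1, Rrm1, Rrm2, Tk1, E2f2 and Ccne2) and 1 of 1 called genes kept their call throughout. The effect of depth on precision was not tested.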

Other observations

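The tested genes nearest to Prim2 (chr1:33510656-33726631) on either side were looked up after its values were seen. Ptp4a1 (chr1:30997148-31006615), the nearest on the side of lower coordinates, lay much farther from Prim2 than the nearest on the other side. It had means of 1.61, 2.23 and 1.03 FPKM in wild-type, Bcl11bm/m and Bcl11bfl/fl:Cd4-Cre. Its log2 differences had the direction of those of Prim2 in all 3 comparisons (0.29 and -0.35 against wild-type and 0.64 between the mutants). None of them was called (adjusted p from 0.0762 to 0.394 by limma). Bag2 (chr1:33802329-33814639), the nearest on the other side, had 2.16, 3.95 and 4.27 FPKM. It was called higher in both mutants (0.66, adjusted p = 0.0263, and 0.71, adjusted p = 0.0402, by limma), with a difference between the mutants of -0.06. Phf3 and Zfp451, the next on either side, had log2 differences between -0.10 and 0.21 in all 3 comparisons and were not called.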
